A study of Mus musculus with 4 samples.

Results

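In all, 10 genes of the fibroblast growth factor (FGF) family were followed in mouse hair follicle stem cells, namely the ligands Fgf1, Fgf2, Fgf5, Fgf7, Fgf10, Fgf18 and Fgf22 and the receptors Fgfr1, Fgfr2 and Fgfr3. They were chosen by gene symbol from an earlier reading of these data, in which Fgf1 and Fgf18 stood out, and by a mean normalized count above 0. The 10 genes are members of a table of 24421 genes, of which 17044 had a mean above 0. The values of Fgf1 and Fgf18 are therefore given as descriptions, without a test.

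The series held 4 RNA-seq libraries from skin at postnatal day 44, 2 from control (Ctrl) mice and 2 from miR-205 inducible mice. In the induced animals a pTRE2-miR-205 transgene was driven by Krt14-rtTA, a doxycycline-dependent activator made in basal keratinocytes, and doxycycline chow was given for 2 days. The labels give the Ctrl mice as untreated, whereas the extraction protocol has doxycycline fed to both groups, so that the diet of the controls is not settled by the labels. All mice carried the Krt14-H2BGFP reporter, the strain was labelled C57BL/6, and the transgenic founders had been made in FVB mice. Bulge cells were sorted as DAPI-negative, H2BGFP-high, Sca1-negative, α6-high and CD34-high. The Krt14 promoter is active throughout the basal epidermis, so that transgene expression was not restricted to the sorted cells. Whether each library came from 1 animal or from a pool is not given in the labels.

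The question of the design was how 2 days of miR-205 induction changed gene expression in these cells. The values used here were the authors' mean normalized counts, 1 per gene over all 4 libraries. Whole reads per library were worked out from these means for every gene with a mean up to 1000, and the libraries are named L1 to L4 in order of decreasing depth. The mean does not say which library was Ctrl and which was induced, and no library was given a group. Libraries are hence compared one with another, and no comparison of Ctrl with induced cells is made. Their depths relative to each other were 1.24, 1.18, 0.966 and 0.716, and the mean library held 13.1 M normalized counts.

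FGF ligands are secreted by one cell and bind receptor tyrosine kinases on the same or another cell, with heparan sulfate as a co-factor. The bound receptors pair, phosphorylate each other and pass the signal through the adaptor FRS2 to the RAS-MAPK cascade, which in turn induces its own inhibitors. In the hair follicle, FGF18 from the bulge is known to hold stem cells at rest, FGF7 and FGF10 from the dermal papilla help to start growth, and FGF5 ends the growth phase.

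The induced agent, miR-205-5p, is shown because its seed (bases 2 to 8) decides which transcripts it can pair with. The mature sequence was taken from RefSeq (GRCm38.p6, chr1:193507503-193507524, minus strand), with the seed in capitals.
miR-205-5p: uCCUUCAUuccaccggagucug
The DNA complement of this seed is ATGAAGG. On the transcript strand, it occurred in the longest annotated 3′UTR (GENCODE vM1, NCBIM37) of 2 of the 10 genes, Fgf1 and Fgf7. Of all 14417 genes with a 3′UTR, 11.8% held the match. In Fgf1 the match lies in the last exon, exon 4 of 4, at base 1070 of the 3254-base 3′UTR of the transcript with the longest coding sequence. The Fgf7 match (NCBIM37, chr2:125916771-125916777, plus strand) lies in exon 4 of 4, at base 1474 of a 1624-base 3′UTR. It is printed with its neighbouring bases, the match in capitals, ahead of the one match found in a receptor, which has only the 6-base form TGAAGG opposite seed bases 2 to 7.
Fgf7 site: ataagtacttATGAAGGgaaggg
Fgfr3 site: tacgggtaccTGAAGGgggggc
The Fgfr3 site (chr5:34078708-34078713, plus strand) is in exon 18 of 18. The 6-base form occurred in 6 of the 10 genes, which were Fgf1, Fgf2, Fgf5, Fgf7, Fgf22 and Fgfr3, and in 36.6% of all genes with a 3′UTR. Neither form was found in the longest 3′UTR of Fgf10, Fgf18, Fgfr1 or Fgfr2. These matches are descriptions of sequence and not measured sites of regulation.

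The libraries held the markers of the labelled cell type together with those of others. All 10 hair follicle stem cell markers were above the median gene (a mean of 117), among them Krt15 with a mean of 119883, Cd34 with 14575, Lgr5 with 4432 and Lhx2 with 3192. Ly6a, which encodes the Sca1 protein selected against in the sort, had a mean of 136, which is also above the median gene, and was at 60.0 to 179, lowest in L4. Fibroblast genes ranged from Pdgfra at 39.5 to Col1a1 at 5186, and 5 of 6 were above the median gene. The 4 melanocyte markers summed to 604, 568, 1593 and 258 in L1 to L4, with 2 of the 4 above the median gene. All 3 suprabasal epidermis markers were above it, with means of 7246 for Krt10, 2033 for Krt1 and 604 for Lor, which ranged from 187 to 1183. Of 5 myeloid genes 4 were above it, led by Cd74 with 2744, and of 3 sebaceous genes 2, led by Scd1 with 3085. Endothelial markers had means of 17.3 to 36.4. Dermal papilla markers had means of only 0.720 to 2.67, and adipocyte markers of at most 0.773. In bulk libraries such as these, fewer cells of a type and less RNA per cell cannot be told apart.

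Of the 5 FGF ligands with reads in every library, Fgf1 differed most between libraries. It encodes the acidic FGF, which lacks a classical secretion signal and binds every FGF receptor. The libraries held 912 reads in L1, 209 in L2, 167 in L3 and 629 in L4. After the authors' scaling these were 737.5 normalized counts in L1 (690 to 787), 177 in L2 (154 to 203), 173 in L3 (148 to 201) and 878 in L4 (811 to 950), with exact 95% Poisson intervals. L1 and L4 were high, L2 and L3 were low, and no interval of a high library overlapped one of a low library. Intervals here and below cover counting error only, since PCR copies of 1 molecule were not separated.

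The ratio of L1 to L2 for Fgf1 was 4.16 (95% interval 3.58 to 4.86) and that of L4 to L3 was 5.08 (4.28 to 6.06). Between the low libraries the ratio of L2 to L3 was 1.03 (0.833 to 1.26), so that they did not differ beyond counting error. Between the high libraries the ratio of L4 to L1 was 1.19 (1.07 to 1.32). The highest library over the lowest, or span, was 5.08 for Fgf1. The 2344 genes with reads in every library and a mean within 1.5-fold of that of Fgf1 had a median span of 1.24. The Fgf1 span ranked at their percentile 99.7. Fgf1 was picked from an earlier reading of these same libraries, so that its rank and ratios are descriptions and no support for that choice. Of 7886 genes with a mean over 50 and up to 1000 and reads in every library, 39 had a span of at least that of Fgf1, itself included, and another 3 genes in this range had a library at 0.

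Markers of other cell types are given beside Fgf1 for the same libraries. The fibroblast genes Dcn, Lum and Pdgfra together were at 1038, 767, 1078 and 593 normalized counts in L1 to L4, with L3 highest and L4 lowest. Under the condition of a span of at most 2-fold, Col1a2 was at 3984, 5248, 5183 and 4383 and Col3a1 at 2737, 3849, 3577 and 3424 in L1 to L4. If that condition holds, these collagen genes were lowest in L1, and L1 and L4 were below L2 and L3. The fibroblast genes then did not share 1 order of libraries. Neither the condition nor the fitted reads were checked for the collagen genes, and Lum spanned 2.02-fold. The melanocyte sum given above was lowest in L4 and highest in L3. Singly, Dct, at 388, 394, 1041 and 170, and Tyr had L1 and L4 below L2 and L3, whereas Pmel and Mlana had L1 above L2. Ly6a, selected against in the sort, was at 146, 159, 179 and 60.0, also with L1 and L4 below L2 and L3. For Dct and Ly6a the intervals of L1 and L2 overlapped. The myeloid genes Ptprc, Cd68, Csf1r and Lyz2 together were at 651, 1352, 1065 and 551, lower in both libraries with high Fgf1. Ptprc, Csf1r and Lyz2 each had L1 and L4 below L2 and L3, whereas Cd68 was at 217, 203, 241 and 120, with L1 above L2. Of the other lists, Lor (suprabasal) was at 422, 623, 1183 and 187, and Plin2 (sebaceous) at 878, 1054, 1406 and 642. Both had L1 and L4 below L2 and L3. The endothelial Pecam1 had this order too, at 28.3, 40.7, 56.9 and 19.5, whereas Cdh5 and Kdr did not. Reads per library were not known for Krt1, Krt10 and Scd1, and Mc5r had only 10 reads. The part of RNA of these cell types in the Fgf1 values was not tested.

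**Figure D1:**
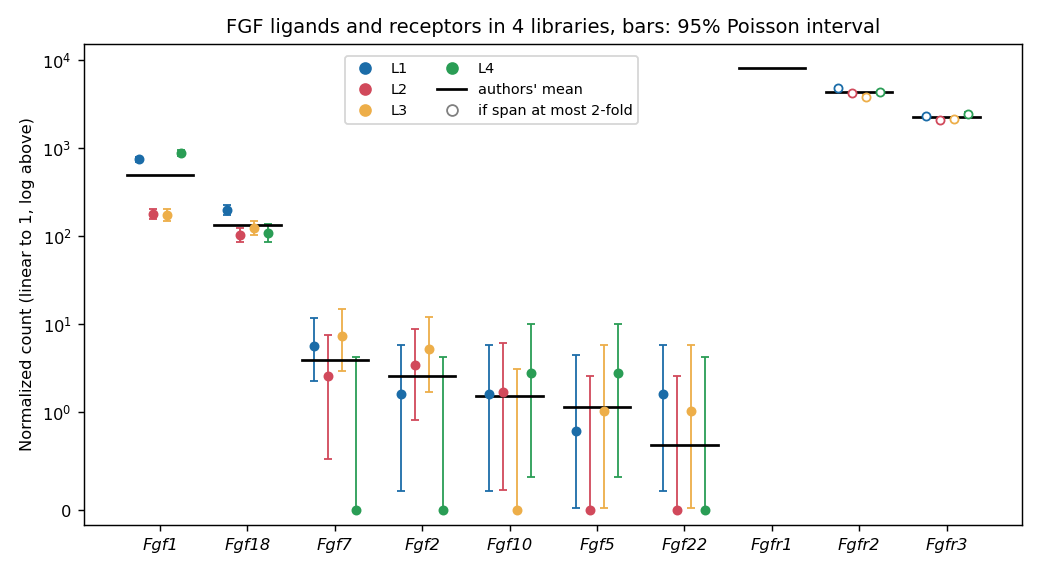
Normalized counts (y axis, linear to 1 and logarithmic above) of the 7 ligands and 3 receptors in the libraries L1 to L4, with 95% Poisson intervals (for 0 reads, up to the 3 reads that a count of 0 allows) and the authors' mean as a black line. Fgf1 was at 737.5 and 878 in L1 and L4 and at 177 and 173 in L2 and L3, and Fgf18 was higher in L1 than in the other 3. Open points are the 1 set of reads that fitted that receptor if its libraries span at most 2-fold. Whether that set is the true one was not tested.

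Fgf18, the quiescence ligand of the bulge, was the other of the 7 ligands above the median gene, at percentile 51.8 of all genes above 0. It lies at chr11:33017430-33047400 on the minus strand (NCBIM37), with no exon shared with another gene. It had 245, 122, 120 and 78 reads in L1 to L4, or 198 (174 to 225), 103 (85.9 to 124), 124 (103 to 149) and 109 (86.1 to 136) normalized counts. Fgf18 was higher in L1 than in each of the others, and L2, L3 and L4 overlapped in their intervals. The ratio of L1 to L2 was 1.91 (1.53 to 2.40), that of L1 to L3 was 1.60 (1.28 to 2.00) and that of L1 to L4 was 1.82 (1.40 to 2.38). L3 over L2 was 1.20 (0.925 to 1.56). The span of 1.91 was at percentile 90.4 of 2084 genes of like level, whose median span was 1.38. Fgf18 was also picked from the earlier reading, so that this rank is a description only. L4, which was highest for Fgf1, was not high for Fgf18.

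The remaining 5 ligands were found in single reads. Fgf7, the keratinocyte growth factor, had 7, 3, 7 and 0 reads in L1 to L4. Fgf2, the basic FGF, had 2, 4, 5 and 0 reads. Fgf10, which shares the epithelial form of Fgfr2 with Fgf7, had 2, 2, 0 and 2 reads. Fgf5 had 1, 0, 1 and 2 reads, and Fgf22, of the same subfamily as Fgf7 and Fgf10, had 2, 0, 1 and 0. A library with 0 reads allows up to 3, and for each of the 5 the intervals of all libraries overlapped. With so few reads this overlap does not show that the libraries were equal. Fgf7 and Fgf2 were both at 0 in L4, which was the shallowest library. L4 was lowest for the fibroblast genes Dcn, at 445 normalized counts, and Lum, at 114. Pdgfra was lowest in L2, at 32.2 beside 33.5 in L4. Under the condition of a span of at most 2-fold, the collagen genes were lowest in L1. The part of fibroblast RNA in the Fgf7 reads was not tested. Of the exons of Fgf2, 242 bases are shared with Nudt6 on the opposite strand, and the strand setting of the counting was not stated.

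Among the ligands outside the 7, Fgf11 was the most abundant. It belongs to the FGF homologous factors, which stay inside the cell and do not act through the receptors. Fgf11 had 69, 85, 56 and 43 reads, or 55.8, 72.1, 58.0 and 60.0 normalized counts, and its intervals overlapped in all 4 libraries. Its span of 1.29 was at percentile 14.1 of 1621 genes of like level. In all, 10 of these 15 ligands were above 0, and Fgf3, Fgf6, Fgf12, Fgf14 and Fgf23 had no read in any library. Fgf13, another homologous factor, had 8, 16, 19 and 6 reads, and the hormone-like Fgf21 had 26 reads in all.

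The make-up of the ligand reads therefore differed between libraries mainly through Fgf1. Fgf1 took 71.6% of 1273 ligand reads in L1 (95% Wilson interval 69.1 to 74.0%), 45.2% of 462 in L2 (40.8 to 49.8%), 42.3% of 395 in L3 (37.5 to 47.2%) and 81.2% of 775 in L4 (78.3 to 83.8%). The share of Fgf18 was 19.2%, 26.4%, 30.4% and 10.1% in the same order. All ligands other than Fgf1 and Fgf18 together were at 93.8 (77.5 to 113), 111 (92.9 to 132), 112 (91.7 to 135) and 94.9 (73.7 to 120) normalized counts. For this remainder all 4 intervals overlapped. These are shares of reads, and longer transcripts give more of them.

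**Figure D2:**
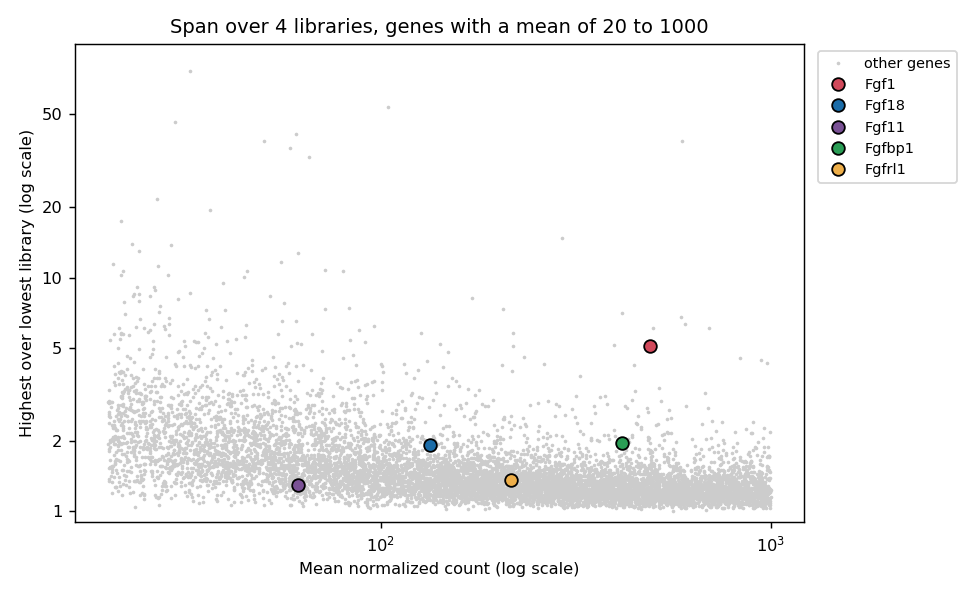
Span (highest over lowest library, y axis, log scale) against the mean normalized count (x axis, log scale) for genes with a mean of 20 to 1000 and reads in every library, each grey point 1 gene. Fgf1 lies at 5.08, far above most genes of its level, Fgf18 at 1.91 and Fgfbp1 at 1.97 lie in the upper part, and Fgfrl1 at 1.36 and Fgf11 at 1.29 lie within the bulk.

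All 3 receptors were among the abundant transcripts of these libraries. The part of RNA of other cell types in the receptor values was not tested. Per kilobase of exon (the mean divided by the length of all annotated exons joined), Fgfr1 stood at 1006, Fgfr2 at 542 and Fgfr3 at 323, at percentiles 96.4, 93.2 and 88.3 of all genes above 0. Fgfr1 was 1.86 times Fgfr2 per kilobase, and Fgfr2 was 1.68 times Fgfr3. The order was the same with coding length, with ratios of 1.96 and 1.82. The splice forms of Fgfr2 and other receptors, which set the ligands they bind, are summed in 1 gene value. Fgfr1 lies at chr8:26624126-26686186 and Fgfr3 at chr5:34064373-34079716 on the plus strand (NCBIM37). Of their exons, 125 bases of Fgfr1 overlap Gm16159 on the opposite strand, and 314 bases of Fgfr2 overlap Ctbp2 on the same strand, so that reads there are uncertain.

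Per kilobase of exon the ligands were lower than the receptors, with Fgf18 at 113 and Fgf1 at 106. Fgfr1 exceeded Fgf1 by 9.52 times on this measure. Per kilobase of coding length, Fgf1 stood at 1050, above Fgfr3 at 922 and below Fgfr2 at 1675 and Fgfr1 at 3285. The place of Fgf1 among the receptors thus depends on the length used. The order of Fgf1 and Fgf18 depends on the length, since Fgf1 has a long 3′UTR: with coding length alone, Fgf1 was 4.90 times Fgf18. No error can be put on these levels from the 4 libraries as groups. The other 5 ligands lay between 0.332 for Fgf10 and 1.41 for Fgf2, below the median of 40.8 per kilobase.

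**Figure D3:**
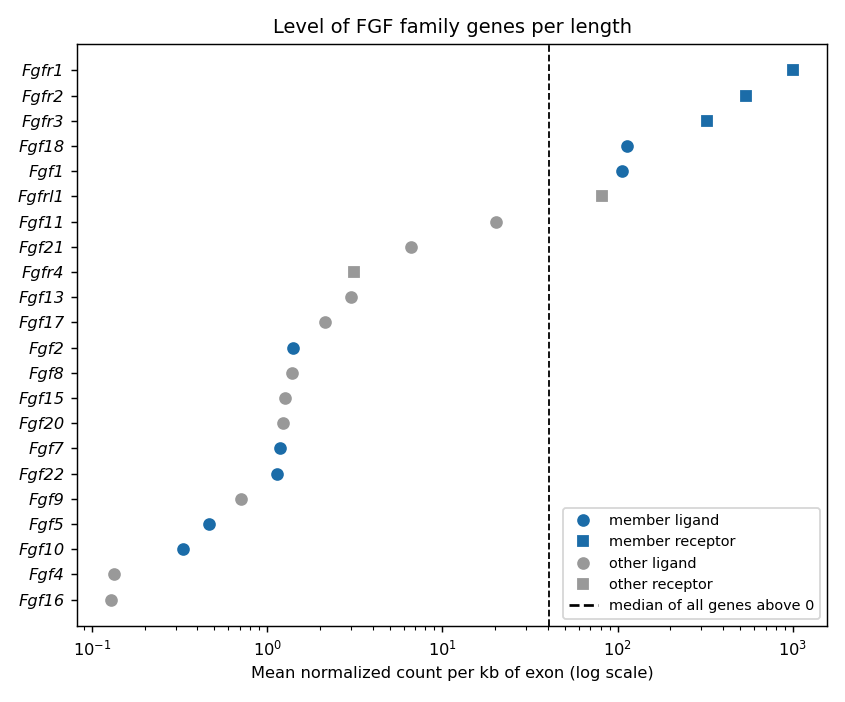
Mean normalized count per kilobase of exon (x axis, log scale) for the FGF ligands (circles) and receptors (squares) with a mean above 0, the 10 members in blue and the others in grey. Fgfr1, Fgfr2 and Fgfr3 lead at 1006, 542 and 323, Fgf18 and Fgf1 follow at 113 and 106, and the other 5 member ligands are at or below 1.41, under the dashed median of 40.8.

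Reads per library of the receptors lay above the range in which the means give 1 answer. Under the condition that the libraries span at most 2-fold, exactly 1 set of reads fitted Fgfr2 and 1 fitted Fgfr3. Of 1890 genes with a mean of 500 to 1000, 2.06% spanned more than this. Among the marker genes with a mean of 1000 to 5000, Cd74, Scd1 and Krt1 fitted 0 sets and Lhx2 fitted 2 under this condition. At least 1 of the 2 Lhx2 sets was false, so that a set can fit without being the true one. Whether the single sets of Fgfr2 and Fgfr3 are the true reads was not tested. In its fitted set Fgfr2 had 5838, 4856, 3672 and 3057 reads in L1 to L4. These were 4721 (4601 to 4844), 4119 (4004 to 4237), 3800 (3678 to 3925) and 4268 (4118 to 4422) normalized counts. L1 was highest and L3 lowest, with a span of 1.24. Fgfr3 had 2830, 2451, 2057 and 1713 reads, or 2289 (2205 to 2374), 2079 (1998 to 2163), 2129 (2038 to 2223) and 2391 (2279 to 2507) normalized counts, with a span of 1.15. For Fgfr3, L1 and L4 were above L2, and the intervals of L1 and L3 overlapped. For Fgfr1 only the mean of 8111 is given.

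The receptors outside the 3 were low or of another kind. Fgfr4 had 22, 8, 11 and 6 reads in L1 to L4. Fgfrl1, which encodes a receptor without a kinase domain, was at 261, 203, 191 and 209 normalized counts, with a span of 1.36. The co-receptors of hormone-like FGFs, Kl and Klb, and their relative Lctl had no read. Fgfbp1 encodes a secreted carrier that frees FGFs from the matrix, and it had 726, 381, 438 and 214 reads. Normalized, these were 587 (545 to 631), 323 (292 to 357), 453 (412 to 498) and 299 (260 to 342), so that L1 was highest and L2 and L4 overlapped. Its span of 1.97 was at percentile 96.9 of 2379 genes of like level. L1 was thus highest for Fgf18 and for Fgfbp1, and L3 came next for each. The intervals of L3 lay above those of L2 and L4 for Fgfbp1, whereas for Fgf18 they overlapped. L2 and L4 overlapped for each gene, so that their order was not settled.

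Most other genes of the pathway were present. Of 65, from other ligands to feedback inhibitors, 56 were above 0, beside 17044 of all 24421 genes. By the mean without regard to length, 39 were above the median gene, which splits all genes above 0 into equal parts. Of the 31 that act downstream of the receptors or are induced there, 30 were above 0 and 26 above the median gene. Of 12 genes for heparan sulfate chains and their core proteins, 11 were above it, led by the syndecans Sdc4 at 18415 and Sdc1 at 9842. Of 17 genes for adaptors and the RAS-MAPK cascade, 16 were above it, with Frs2, the docking protein of the receptors, at 598 and Ptpn11, the phosphatase SHP2, at 1939.

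The targets and feedback inhibitors were more uneven. Of 14 genes, 13 were above 0 and 10 above the median gene. Dusp6, a phosphatase that switches off ERK and is induced by it, had a mean of 12044, at percentile 99.3, and Flrt3, a membrane partner of FGF receptors, had 6607. Spry1 and Spry2, inhibitors of the cascade, were at 416 and 346, and Spry4 was at 56.6. The ETS factors Etv5 and Etv4 were at 251 and 200, whereas Etv1 was at 10.1.

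None of the pathway genes with known reads and a mean over 50 in these 3 lists had a span near that of Fgf1. In the cascade list the 6 such genes spanned 1.06 to 1.35, and in the heparan sulfate list 6 genes spanned 1.08 to 1.26. Among 8 targets and inhibitors the span was 1.12 for Spry2 up to 1.69 for Etv4, with a median of 1.29, beside a median of 1.31 over the 7886 genes. Etv4 was at 158, 267, 214 and 162 normalized counts in L1 to L4, lowest in L1 and highest in L2. The widest of the cascade list, Map2k1, was at 565, 421, 420 and 535. Gpc1, the widest of the heparan sulfate list, was at 546, 668, 643 and 529. Map2k1 thus had L1 and L4 above L2 and L3, whereas Gpc1 and Etv4 had them below. Spry2 was at 329 to 369. The genes for which reads were not known, Dusp6 and Flrt3 among them, are given by their mean only.

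**Figure D4:**
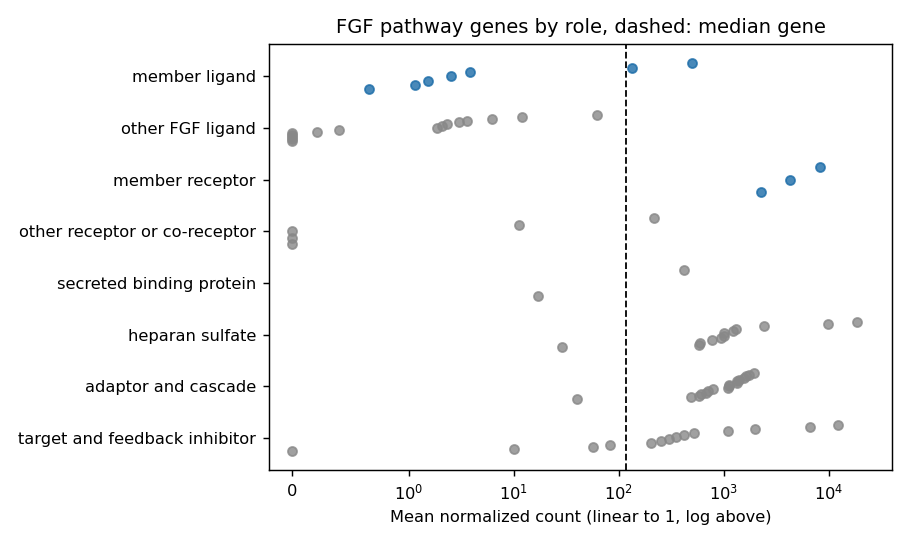
Mean normalized count (x axis, linear to 1 and logarithmic above) of every FGF pathway gene by role, each point 1 gene, members in blue, with the median gene of 117 dashed. The 3 member receptors lie between 2222 and 8111, 5 of 7 member ligands lie below 10, and the cascade genes lie mostly between 485 and 1939.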

How the data were processed

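RNA from sorted bulge cells was sequenced as 150-nt paired-end reads. The authors aligned them with HISAT2 2.1.0, converted the alignments with SAMtools 1.3.1, counted with HTSeq and ran DESeq2, per the labels and the study's methods. The genome was given as mm10, and the annotation, like the strand setting, is not given in the sources used here. The deposited signal is the mean over 4 libraries of counts divided by size factors. Other deposited columns hold the authors' comparison (fold change, its error, statistic and p-values) and were not used. There were 0 columns of per-sample values.

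A mean is a sum of whole reads times 1 fixed step per library. Steps were taken from genes with 1 read and refined on 849 genes. Every mean up to 1000 was solved within 1 unit of its 15th digit. All 14591 such genes gave exactly 1 set, and 13352 did at 10 times this tolerance. For means up to 1000 the method was tested on simulated data. These were made with the same steps, so that the steps themselves were not tested. Means between 1000 and 5000 were solved only for sets spanning at most 2-fold, which the simulation did not cover. Precision is given by exact Poisson intervals, Wilson intervals for shares, at 95%. No test between groups was made because libraries had no group.

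Lengths, places and 3′UTRs came from GENCODE vM1 on NCBIM37, another build than the authors', without conversion of coordinates. Of genes above 0, 90.0% had a length by symbol. Analyses used Python 3.11.15, numpy 2.4.6 and scipy 1.17.1. The text names the members and genes of fixed pathway and marker lists. Members and lists were chosen with earlier results of these data known. The sequence and position of Fgf1 are not reported here.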

Additional observations from a re-analysis of the deposited data

How the results depend on the processing

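Without size factors the span of Fgf18 was 3.14 in place of 1.91, because read totals then differ with depth, whereas that of Fgf1 was 5.46 in place of 5.08. With the 6-base seed match 6 of the 10 genes held one in place of 2, and with the shortest annotated 3′UTR 0 did. With the 3′UTR of the transcript with the longest coding sequence, an alternative chosen after seeing the data, 2 did. Leaving out each library in turn moved the mean of Fgf1 from 363 (without L4) to 598 (without L3), around 491, and that of Fgf18 from 112 to 144, around 134. Of the ligands found in single reads, Fgf22 moved from 0.663 to 0.345 without L1, Fgf5 from 1.16 to 0.615 without L4 and Fgf2 from 2.55 to 1.67 without L3, each over 1.5 times. At 10 times the tolerance all 7 ligands kept 1 set of reads, and 1239 of 14591 genes did not have exactly 1. Per kilobase, 5 members were above the median gene under every length and ranking tried, whereas by the mean itself Fgf18 was at percentile 20.6 among genes with a mean over 50. In that ranking 34 in place of 39 pathway genes were above the median. Of 40 recomputed values, 3 moved by over 1.5 times (counts and spans), namely the Fgf18 span and both seed counts. The other 37 include the leave-one-out means, for which the limit was 1 SD over the 4 libraries. Leaving out 1 of 4 libraries cannot move a mean that far, so that these means could not have counted as moved.

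No paired analysis was possible because the mean ties no library to a replicate number or to a group. The libraries cannot be compared as Ctrl and induced here. Counts of 0 to 7 reads limit Fgf2, Fgf5, Fgf7, Fgf10 and Fgf22, and 2453 genes above a mean of 1000, the receptors included, have no reads per library without a condition on their span.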

Other observations

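The Fgf1 values fell into 2 clusters, L1 and L4 at 737.5 and 878 normalized counts and L2 and L3 at 177 and 173, whereas Fgf18 values lay at 198 in L1 and at 103, 124 and 109 in L2, L3 and L4. Groups of these libraries were not assigned from these values.

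Some marker genes of other cell types, chosen after their values were seen, differed widely between libraries. The pigment gene Dct, an enzyme of melanin synthesis, spanned 6.11-fold and Pmel, a protein of pigment granules, 5.79-fold, both highest in L3 and lowest in L4. The cornified envelope gene Lor spanned 6.32-fold with the same extremes, and the endothelial cadherin Cdh5, highest in L1, spanned 8.11-fold, whereas Kdr of the same list spanned 1.48-fold and Pdgfra 1.51-fold. L4 was lowest for Ly6a as well. Lyz2 was highest in L2, with a span of 3.29. Among like-level genes, Dct was at percentile 99.7 and Lyz2 at 99.5.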
